A study of Mus musculus with 6 samples.

Results

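Red blood cells carry oxygen on haemoglobin, a tetramer of alpha-globin and beta-globin chains that each hold a haem group. Erythroid precursors switch these genes on under the transcription factors GATA1 and KLF1, survive through the erythropoietin receptor, and make haem through the enzyme ALAS2. Haematopoietic stem cells (HSC), which renew the whole blood system, lie far upstream of that stage, and transcripts of the erythroid programme are present in them at lower levels. Described here are 9 genes, chosen by symbol as adult globins and early erythroid genes: Hbb-bt, Hbb-bs, Hba-a1, Hba-a2, Gata1, Klf1, Epor, Alas2 and Car1. All 9 were found among the 52183 genes of the deposited table, and 7 of the 9 were high enough to enter the test across 12555 genes. Hba-a2 and Alas2 stayed below the filter and are given as values only.

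The cells were HSC sorted by flow cytometry from bone marrow of female mice aged 4 months. There were 3 libraries labelled Thbs1 knockout and 3 labelled Control; the labels name no drug, no strain, no sort markers and no design of the deleted allele. Thbs1 encodes thrombospondin 1, a secreted matrix protein, and the comparison asks which HSC transcripts differ when it is deleted. Whether each library is a separate mouse is not stated, so each p-value rests on library-to-library spread that could be technical. Levels are FPKM, fragments per kilobase of exon for every 1000000 mapped fragments, as the authors deposited them.

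The steps between FPKM values corresponded to depths of 25760000 to 30900000 reads in the libraries labelled knockout and 22710000 to 25950000 reads in the Control libraries. The level of Thbs1 itself went against the label: the libraries labelled knockout had 10.82, 8.50 and 7.68 FPKM against 4.12, 13.82 and 2.33 FPKM in Control libraries (two-sided exact permutation test, p = 0.5; the lowest p attainable with 3 libraries a group is 0.1), so directions follow the labels alone. Of 14 HSC markers, 13 reached 1 FPKM in every library, among them Kit, Procr, Mecom and Hlf, and Thy1 stayed below 1 FPKM throughout. Of the 13 tested, 0 were called higher and 1 lower by limma, beside 0.566% and 0.996% of all tested genes. Ly6a, the gene of the surface antigen Sca-1, fell to 76.9 ± 11.1 FPKM in the libraries labelled knockout, against 114.8 ± 6.78 FPKM in Control libraries (SD, n = 3 each). Its limma log2 difference was -0.58 ± 0.10 (adjusted p = 0.0286). Its part in the results below was not tested. Some markers that were not called did not overlap between the groups either, as was the case for 22.8% of all tested genes. Procr averaged 59.3 FPKM in the libraries labelled knockout and 45.4 FPKM in Control libraries (limma adjusted p = 0.0857). Hlf averaged 63.5 FPKM in the libraries labelled knockout and 73.05 FPKM in Control libraries (limma adjusted p = 0.201). Of 7 markers of maturing red cells in the table, Slc4a1 and Epb42 stayed below 1 FPKM in all 6 libraries. Slc4a1, the band 3 anion exchanger that fills the red-cell membrane, was listed at 0 in all libraries labelled knockout and at 0.01 to 0.03 FPKM in Control libraries. These values are too close to the limit of detection to be read as a group difference.

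Adult globin transcripts were present at low levels, and the beta-globin gene Hbb-bt was lower in the libraries labelled knockout. Its level averaged 4.06 ± 0.462 FPKM in the libraries labelled knockout and 14.8 ± 4.50 FPKM in Control libraries (SD, n = 3 each). The neighbouring beta-globin gene Hbb-bs and the alpha-globin genes Hba-a1 and Hba-a2 overlapped between the groups. Hbb-bt was the 1 member of 7 tested that passed limma's test (adjusted p below 0.05), and it was lower. Over all tested genes 0.996% were called lower and 0.566% higher, and a single call among 7 genes is too few to set against these shares.

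The globin genes come in near-identical pairs, and the coding bases of a pair hardly tell its copies apart. Hbb-bt (ENSMUSG00000073940) lies on the minus strand of chromosome 7 from 103812524 to 103813996 in GRCm38, and Hbb-bs (ENSMUSG00000052305) from 103826534 to 103828096. Hba-a1 (ENSMUSG00000069919) lies on the plus strand of chromosome 11 from 32283511 to 32284465 and Hba-a2 (ENSMUSG00000069917) from 32296489 to 32297298. In the GENCODE M21 transcripts, Hbb-bt and Hbb-bs differed at 1 of 441 coding bases and Hba-a1 and Hba-a2 at 1 of 426. The stretches around these bases, all in exon 3, are shown because they are the sole coding bases that separate a read of one copy from a read of the other, and capitals mark the differing base. They were read from the GENCODE transcripts at chr7:103812664-103812703 and chr7:103826673-103826712 for the beta pair, and at chr11:32284323-32284362 and chr11:32297140-32297179 for the alpha pair.
Hbb-bt: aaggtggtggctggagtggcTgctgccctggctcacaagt
Hbb-bs: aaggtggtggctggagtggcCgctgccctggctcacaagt
Hba-a1: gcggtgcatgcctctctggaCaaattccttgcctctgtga
Hba-a2: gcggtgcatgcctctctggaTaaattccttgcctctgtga
Over the whole transcript, 58.3% of the 50-base windows of Hbb-bt occurred unchanged in Hbb-bs, and 65.8% of those of Hbb-bs occurred in Hbb-bt. For the alpha pair these shares were 67.5% of Hba-a1 and 86.9% of Hba-a2. Reads from these windows cannot be assigned to a copy, and how the authors counted them is not given in the sources used here. Levels of single copies are therefore uncertain, and the sums over a pair are given beside them.

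The 2 groups were fully apart for Hbb-bt. It stood at 3.54, 4.43 and 4.2 FPKM in libraries 1 to 3 labelled knockout, and at 11.95, 12.44 and 19.98 FPKM in Control libraries 1 to 3. Every library labelled knockout lay below every Control library, as was the case for 10.1% of all tested genes. Control library 3 was the highest of all. These values rest on about 76 to 81 reads in the libraries labelled knockout and 202 to 319 reads in the Control libraries. On the log2(FPKM + 1) scale the difference was -1.61 ± 0.18 (limma moderated SE, adjusted p = 0.00247). Without Control library 3 it was -1.39 (adjusted p = 0.00216), and the call held in all 6 fits with a library left out. It was lost when no filter on low values was applied (limma adjusted p = 0.0874, with 35246 genes tested). In bulk RNA, fewer cells that carry a transcript and less of it per cell cannot be told apart.

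Hbb-bs overlapped between the groups. It stood at 2.78, 6.25 and 4.45 FPKM in libraries labelled knockout and at 5.27, 6.31 and 7.17 FPKM in Control libraries. Library 2 labelled knockout, at 6.25 FPKM, lay inside the Control range. The log2 difference of -0.44 ± 0.22 did not pass the test (limma adjusted p = 0.352). It was -0.20 without library 1 labelled knockout and -0.67 without library 2, and passed in 0 of 6 fits with a library left out (limma adjusted p 0.191 to 0.631). Behind these values lay 66 to 125 reads per library.

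The beta pair taken as a sum was lower in the libraries labelled knockout, and this sum includes the Hbb-bt difference. By mean, Hbb-bt stood at 4.06 FPKM in the libraries labelled knockout and 14.8 FPKM in Control libraries. Hbb-bs stood at 4.49 and 6.25 FPKM. Summed over Hbb-bt and Hbb-bs, the level was 6.32, 10.68 and 8.65 FPKM in the libraries labelled knockout against 17.22, 18.75 and 27.15 FPKM in Control libraries. The groups did not overlap, as was the case for 22.8% of all tested genes (10.1% lower and 12.6% higher). The mean was 8.55 ± 2.18 FPKM in the libraries labelled knockout, against 21.04 ± 5.35 FPKM in Control libraries (SD, n = 3 each; exact two-sided permutation p = 0.1, the smallest this design allows). Put into the limma fit as 1 row, the pair differed by -1.21 ± 0.19 on the log2(FPKM + 1) scale (adjusted p = 0.0194).

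The groups also stood apart in the balance within the pair. Hbb-bt made up 56.0%, 41.5% and 48.6% of the beta-globin FPKM in libraries 1 to 3 labelled knockout, and 69.4%, 66.3% and 73.6% in Control libraries 1 to 3. This share was chosen for display after the values of both genes were seen. Hbb-bt is part of the share and of the ratio below, so neither is separate from the Hbb-bt result. FPKM of Hbb-bs rests on 768 exon bases, whereas its full coding transcript has 628, which raises the Hbb-bt share in both groups. The 703 exon bases of Hbb-bt include some before its start site in RefSeq. For transcripts that begin at that site, this lowers the share in both groups. As a log2 ratio of Hbb-bt over Hbb-bs the means were -0.08 ± 0.42 in the libraries labelled knockout and 1.21 ± 0.25 in Control libraries (SD, n = 3 each; exact two-sided permutation p = 0.1, the smallest possible). The ratio was lower in each of the 3 libraries labelled knockout than in any Control library.

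The alpha-globin pair was lower in level than the beta pair in every library, and its groups overlapped. Hba-a1 stood at 1.51, 2.37 and 1.86 FPKM in libraries labelled knockout and at 2.28, 2.08 and 2.60 FPKM in Control libraries, from 38 to 50 reads each. Library 2 labelled knockout lay above 2 of the 3 Control libraries, and the log2 difference of -0.20 ± 0.16 did not pass (limma adjusted p = 0.599). It was -0.09 without library 1 labelled knockout and -0.31 without library 2, again with no call (limma adjusted p 0.482 to 0.842 with each library left out). Hba-a2 rested on few reads, about 6, 19 and 3 in the libraries labelled knockout and 27, 5 and 9 in Control libraries. These correspond to 0.29, 1.09 and 0.17 FPKM in the libraries labelled knockout against 1.56, 0.32 and 0.59 FPKM in Control libraries, a scatter as wide within a group as between groups. Summed over the alpha pair, the mean was 2.43 ± 0.899 FPKM in the libraries labelled knockout and 3.14 ± 0.721 FPKM in Control libraries (SD, n = 3 each; exact two-sided permutation p = 0.3). The ratio of summed beta to summed alpha FPKM was 3.51, 3.09 and 4.26 in the libraries labelled knockout and 4.48, 7.81 and 8.51 in Control libraries, without overlap (exact permutation p = 0.1, the smallest possible). This ratio was not a planned comparison. Hbb-bt is part of it, so it is not separate from the Hbb-bt result. All 4 adult globins together took 6.05, 10.6 and 8.0 of every 1000000 reads in the libraries labelled knockout, and 15.3, 15.5 and 22.1 in Control libraries.

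**Figure D1:**
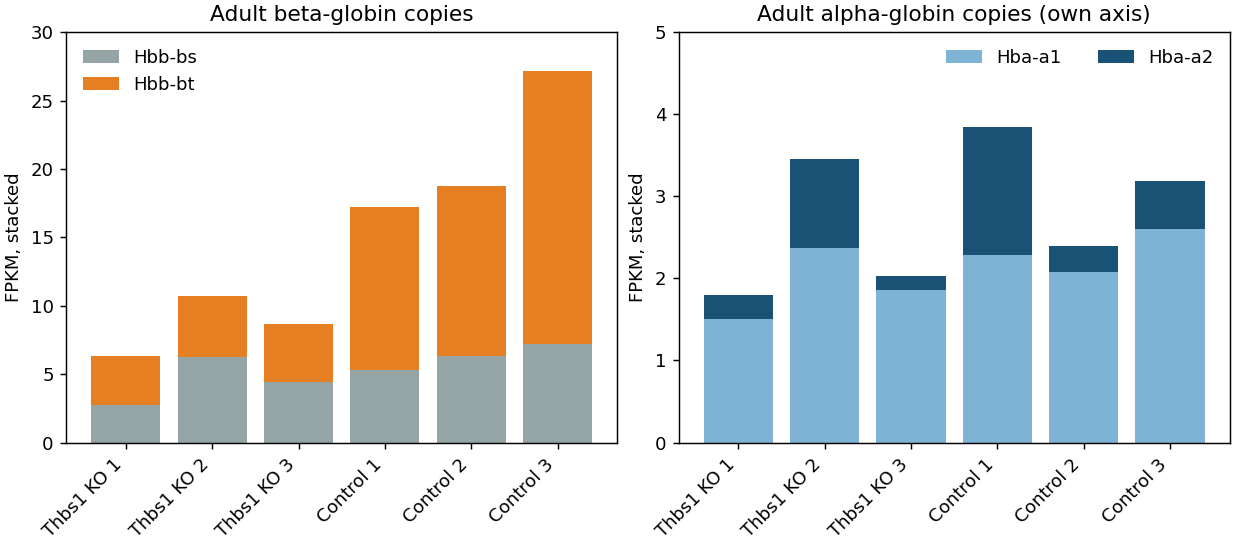
Stacked FPKM of the beta-globin copies Hbb-bs and Hbb-bt (left) and of the alpha-globin copies Hba-a1 and Hba-a2 (right, on its own axis) in each of 6 libraries, those labelled Thbs1 knockout (KO) on the left of each panel. The Hbb-bt part stands between 3.54 and 4.43 FPKM in the libraries labelled knockout and between 11.95 and 19.98 FPKM in Control libraries, while the Hbb-bs part and the alpha bars overlap between the groups.

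Embryonic globins were nearly silent in both groups. Of 7 further globin genes in the table, Hbb-bh0, Hbb-bh1, Hbb-bh2 and Hbq1b were listed at 0 in all 6 libraries. Hbb-y, the embryonic epsilon-type beta-globin, reached 0.89 FPKM in Control library 2 and 0.06 FPKM in Control library 1, and was listed at 0 in the other 4 libraries. Hba-x, the embryonic zeta-type alpha-globin, did not pass 0.05 FPKM in any library, and Hbq1a did not pass 0.13 FPKM.

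Unlike their coding bases, the beta-globin promoters differed clearly, and they are shown because the balance of the pair did not overlap between the groups. The sequences are the 200 bases before the start site in RefSeq (GRCm38.p6), 5′ to 3′ on the strand of the gene. Hbb-bt and Hbb-bs are read from the minus strand at chr7:103813924-103814123 and chr7:103827929-103828128, and Hba-a1 from the plus strand at chr11:32283472-32283671. Capitals mark matches on either strand to 4 motifs: the GATA motif (spelt as AGATAA, as the form AGATAG, as the form TGATAA or as the form TGATAG), the KLF-type CACCC box (CCNCNCCC), the CCAAT box (CCAAT) and a TATA-type box (ATATAA).
Hbb-bt: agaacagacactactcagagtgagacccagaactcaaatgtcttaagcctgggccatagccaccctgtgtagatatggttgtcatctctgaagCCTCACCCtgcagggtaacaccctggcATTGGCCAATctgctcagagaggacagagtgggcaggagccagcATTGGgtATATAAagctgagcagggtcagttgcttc
Hbb-bs: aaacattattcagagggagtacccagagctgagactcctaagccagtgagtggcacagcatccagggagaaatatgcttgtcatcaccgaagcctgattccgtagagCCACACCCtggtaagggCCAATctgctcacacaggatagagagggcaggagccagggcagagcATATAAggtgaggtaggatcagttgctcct
Hba-a1: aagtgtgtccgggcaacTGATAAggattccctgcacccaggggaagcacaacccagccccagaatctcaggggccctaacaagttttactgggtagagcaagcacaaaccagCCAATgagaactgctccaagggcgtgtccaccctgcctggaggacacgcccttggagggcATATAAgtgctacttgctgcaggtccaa
Aligned end to end, the printed Hbb-bt and Hbb-bs stretches were identical at 69.6% of 207 positions, and the corresponding stretches of Hba-a1 and Hba-a2 at 97.0% of 203. Both beta promoters held 1 CACCC match, 107 bases before the start in Hbb-bt and 93 in Hbb-bs. Hbb-bt held 3 CCAAT matches and Hbb-bs held 1. The ATATAA match lay 29 and 30 bases before the start of Hbb-bt and Hbb-bs. Searching 250 bases before the start, a GATA match was found in Hbb-bs (210 bases before, outside the printed stretch) and none in Hbb-bt. Of 27025 promoters of that length, 27.1% held the GATA motif, 45.6% the CACCC box, 34.5% CCAAT and 9.51% ATATAA. No matches shared a base in the printed stretches (in Hbb-bt a pair of CCAAT matches on opposite strands lie end to end), and a match describes letters, not a bound site.

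The erythroid transcription factors Gata1 and Klf1 were well expressed, and neither passed the test. Gata1 (ENSMUSG00000031162, chromosome X, 7959260 to 7978071), the zinc-finger factor that specifies the erythroid and megakaryocyte lineages, stood at 32.51, 30.61 and 27.69 FPKM in libraries labelled knockout and at 25.40, 29.86 and 19.90 FPKM in Control libraries. The groups overlapped through Control library 2, and Control library 3 was the lowest of the 6. The log2 difference was 0.28 ± 0.13 (limma adjusted p = 0.338), and it came to 0.13 without Control library 3 and to 0.41 without Control library 2. Klf1 (ENSMUSG00000054191, chromosome 8, 84901928 to 84905291), the Kruppel-like factor that binds CACCC boxes of the adult beta-globin gene, stood at 13.37, 12.18 and 13.24 FPKM in libraries labelled knockout and at 10.25, 13.30 and 7.43 FPKM in Control libraries. Its libraries labelled knockout lay close together, while the Control libraries spread over nearly the whole range. The log2 difference was 0.33 ± 0.17 (limma adjusted p = 0.362), with 0.13 when Control library 3 was left out and 0.52 when Control library 2 was. Control library 3, the lowest for Gata1 and Klf1, was the highest for Hbb-bt, Hbb-bs and Hba-a1.

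Epor (ENSMUSG00000006235, chromosome 9, 21958897 to 21963506), which encodes the receptor of the red-cell hormone erythropoietin, was the steadiest member. It stood at 13.63, 13.54 and 12.30 FPKM in libraries labelled knockout and at 12.50, 13.98 and 11.58 FPKM in Control libraries. The highest library was 1.21 times the lowest, and both extremes were Control libraries. The log2 difference was 0.05 ± 0.10 (limma adjusted p = 0.845), from 523 to 838 reads per library.

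Alas2 (ENSMUSG00000025270, chromosome X, 150547375 to 150570638), the erythroid form of the first enzyme of haem synthesis, was close to the limit of detection. It stood at 0.15, 0.21 and 0.16 FPKM in libraries labelled knockout, or 10 to 13 reads each. In Control libraries it stood at 0.26 and 0.31 FPKM in libraries 1 and 3 and was listed at 0 in library 2, where a count of 0 allows up to 0.0540 FPKM (3 reads, counting error only). The Control libraries thus enclosed those labelled knockout, and no difference was detectable at this depth.

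Car1 (ENSMUSG00000027556, chromosome 3, 14766216 to 14808368) encodes the cytosolic carbonic anhydrase 1, which interconverts carbon dioxide and bicarbonate and marks early erythroid commitment. It had the highest mean level of the 9 genes and spread widely among the libraries labelled knockout, with 93.06, 20.53 and 79.26 FPKM, against 59.63, 66.51 and 45.20 FPKM in Control libraries. Libraries 1 and 3 labelled knockout lay above every Control library, and library 2 lay below every one of the other 5. With all libraries the log2 difference was -0.07 ± 0.46 (limma adjusted p = 0.962). Without library 2 labelled knockout its sign turned, to 0.60 ± 0.15 (limma adjusted p = 0.147), and it did not pass the test there either. At least 667 reads lay behind each value, so counting error was small beside this spread.

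**Figure D2:**
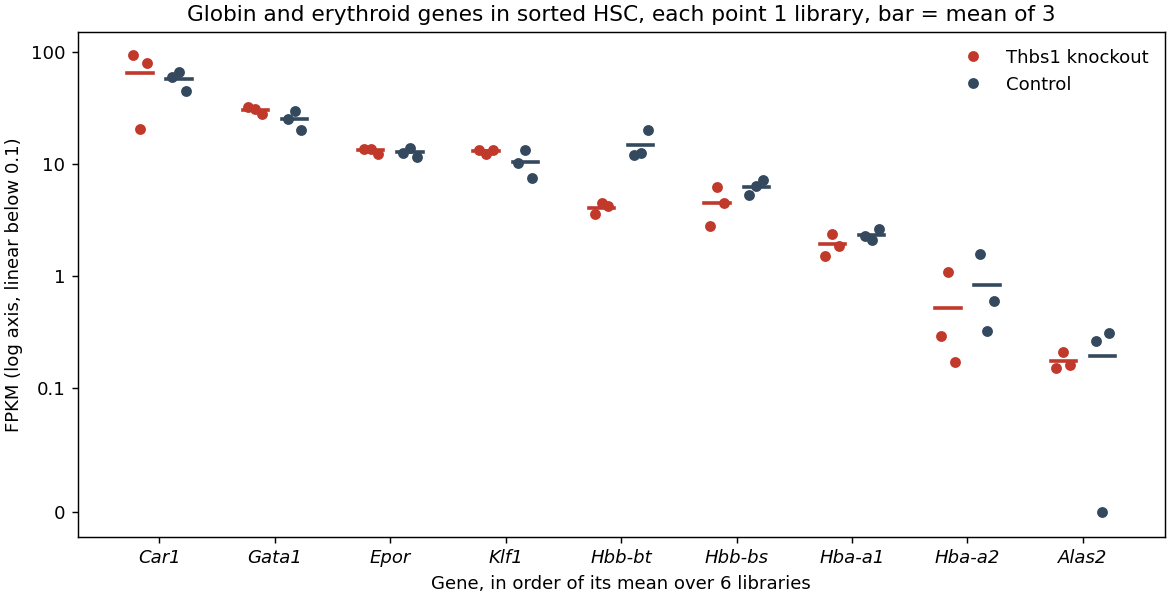
FPKM of the 9 genes on a log axis that is linear below 0.1, in order of their mean level; each point is 1 library and each bar the mean of 3, with libraries labelled Thbs1 knockout left of Control. Hbb-bt is the gene whose groups stand apart, Car1 has 1 library labelled knockout at 20.53 FPKM far below its other 2, and Alas2 has 1 Control library at 0.

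Per length of exon, the mean level over the 6 libraries ran from Car1 (60.7 FPKM) through Gata1 (27.7), Epor (12.9), Klf1 (11.6), Hbb-bt (9.42), Hbb-bs (5.37), Hba-a1 (2.12) and Hba-a2 (0.670) to Alas2 (0.182). Gata1 exceeded Epor, Hbb-bs exceeded Hba-a1, Hba-a1 exceeded Hba-a2 and Hba-a2 exceeded Alas2 in all 6 libraries. Car1 exceeded Gata1 in 5 of 6 libraries and Epor exceeded Klf1 in 5 of 6. Klf1 exceeded Hbb-bt, and Hbb-bt exceeded Hbb-bs, in 4 of 6. The place of Hbb-bt differed by group: by mean level it stood below Hbb-bs in the libraries labelled knockout (4.06 against 4.49 FPKM), and above Epor and Klf1 in Control libraries (14.8 against 12.7 and 10.3 FPKM). Among the Control libraries, Hbb-bt exceeded Epor in library 3 alone and Klf1 in libraries 1 and 3. Klf1 exceeded Hbb-bt in all 3 libraries labelled knockout, and Hbb-bt exceeded Hbb-bs in all 3 Control libraries. Car1 lay above 91.6% and Gata1 above 79.2% of the tested genes by mean level, whereas Hba-a1 lay above 15.9%. The exon length of Hbb-bs, 768 bases, and of Hba-a1, 812 bases, includes intron retained in some annotated transcripts, whereas their full coding transcripts have 628 and 699 bases. For Hba-a2 the exon length was 667 bases against 554 in its full coding transcript, and for Hbb-bt both were 703 bases. FPKM per spliced messenger of Hbb-bs, Hba-a1 and Hba-a2 would be higher in proportion. The GENCODE bounds of Hbb-bt, Hbb-bs and Hba-a1 also reach into the promoter stretches printed above. Their exon lengths thus count bases before the RefSeq start site. For transcripts that begin at that site, FPKM of Hbb-bt would be higher too.

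The wider erythroid programme gave few calls. Lists of erythroid genes held 94 further tested genes, of which 0 were called higher, 2 lower and 92 not called by limma; 18 had an unadjusted p below 0.05. The median log2 difference of these genes was 0.01, the same as over all 12555 tested genes (0.01), of which 1.56% were called and 16.4% had an unadjusted p below 0.05. With FPKM scaled to a common sum of 1000000 in each library (TPM), 20 of 99 list genes were called higher and 2 lower, in place of 0 and 2 of 94. Under this scaling the median of all genes moved to 0.19 on the log2 scale, 2016 genes were called higher and 128 lower in place of 71 and 125, and the directions below are those of the values as deposited.

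Among 25 erythroid transcription factors and partners, Gata1 and Klf1 included, 0 were called higher and 1 lower, with a median log2 difference of -0.03. By limma 6 had an unadjusted p below 0.05, beside 16.4% of all tested genes. Groups did not overlap for 1 that was higher and 8 that were lower, beside 12.6% and 10.1% of all tested genes. Lyl1, a basic helix-loop-helix factor related to Tal1, fell to 19.5 ± 1.87 FPKM in the libraries labelled knockout, against 29.0 ± 1.02 FPKM in Control libraries (SD, n = 3 each; limma log2 difference -0.56 ± 0.09, adjusted p = 0.0153). The call was lost in 4 of 6 fits with a library left out, when Control library 2 or 3 or library 2 or 3 labelled knockout was missing, with adjusted p of at most 0.0693. It was also lost with the replicate number as a block (limma adjusted p = 0.0523), without an intensity trend (0.0616) and without a filter on low values (0.123).

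Genes of erythropoietin signalling were not called. Of 18 tested, Epor included, 0 passed limma's test, beside 1.56% of all tested genes. An unadjusted p below 0.05 by limma was found for 3, beside 16.4% of all tested genes. The median log2 difference was 0.00. Pim1, a survival kinase induced by STAT5, stood at 12.9 ± 2.95 FPKM in the libraries labelled knockout and 22.6 ± 6.38 FPKM in Control libraries (limma adjusted p = 0.117). Without Control library 1 it passed (limma adjusted p = 0.0329). Cish, a STAT5-induced inhibitor of cytokine receptors, stood at 8.05 ± 0.338 FPKM in the libraries labelled knockout and 6.43 ± 0.0231 FPKM in Control libraries (limma adjusted p = 0.173). Erfe, the erythroid hormone that represses hepcidin, did not pass 0.20 FPKM in any library.

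Of 18 tested genes of haem synthesis, transport and breakdown, 0 were called higher and 1 lower, with a median log2 difference of 0.07. By limma 5 had an unadjusted p below 0.05, beside 16.4% of all tested genes. Fitted differences lay above 0 for 14 and below 0 for 4, against 6704 and 5851 of all tested genes. Groups did not overlap for 4 that were higher and 1 that was lower, beside 12.6% and 10.1% of all tested genes. Hmox1 (chromosome 8, 75093621 to 75100589), the inducible haem oxygenase that breaks haem down, fell to 11.4 ± 1.88 FPKM in the libraries labelled knockout, against 20.2 ± 1.07 FPKM in Control libraries (SD, n = 3 each; limma log2 difference -0.78 ± 0.11, adjusted p = 0.0112). It stood at 10.02, 13.54 and 10.62 FPKM in libraries labelled knockout and at 19.21, 20.06 and 21.33 FPKM in Control libraries, without overlap. The call held in all 6 fits with a library left out (limma adjusted p up to 0.04995) and was lost without a filter on low values (adjusted p = 0.132).

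Among 18 genes of iron supply 0 were called, beside 1.56% of all tested genes. By limma 1 had an unadjusted p below 0.05, beside 16.4% of all tested genes. These shares stand beside the membrane and carbonic anhydrase counts below as well. The median log2 difference of the iron genes was 0.04. Slc11a2, the divalent metal transporter DMT1, stood at 6.35 ± 0.323 FPKM in the libraries labelled knockout and 5.19 ± 0.293 FPKM in Control libraries (limma adjusted p = 0.276), and the iron chaperone gene Pcbp1 at 360 ± 16.7 FPKM in the libraries labelled knockout and 327 ± 2.88 FPKM in Control libraries (limma adjusted p = 0.354). Of 22 red-cell membrane genes, 12 were tested, 0 were called and 1 had an unadjusted p below 0.05 by limma. Gypc, which encodes glycophorin C, stood at 83.9 ± 7.16 FPKM in the libraries labelled knockout and 69.8 ± 10.3 FPKM in Control libraries (limma adjusted p = 0.253), and the water channel gene Aqp1 at 19.4 ± 5.31 FPKM in the libraries labelled knockout and 24.7 ± 4.70 FPKM in Control libraries (limma adjusted p = 0.407). Of 16 carbonic anhydrase genes, Car1 included, 7 were tested, 0 were called and 2 had an unadjusted p below 0.05 by limma. Car13 stood at 3.80 ± 0.359 FPKM in the libraries labelled knockout and 5.32 ± 0.749 FPKM in Control libraries (limma adjusted p = 0.173), and Car3 at 2.97 ± 0.611 FPKM in the libraries labelled knockout and 4.36 ± 1.18 FPKM in Control libraries (limma adjusted p = 0.302). Car2, the other red-cell isoenzyme, was far more abundant than Car1, at 1039 ± 49.4 FPKM in the libraries labelled knockout and 1070 ± 78.2 FPKM in Control libraries.

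**Figure D3:**
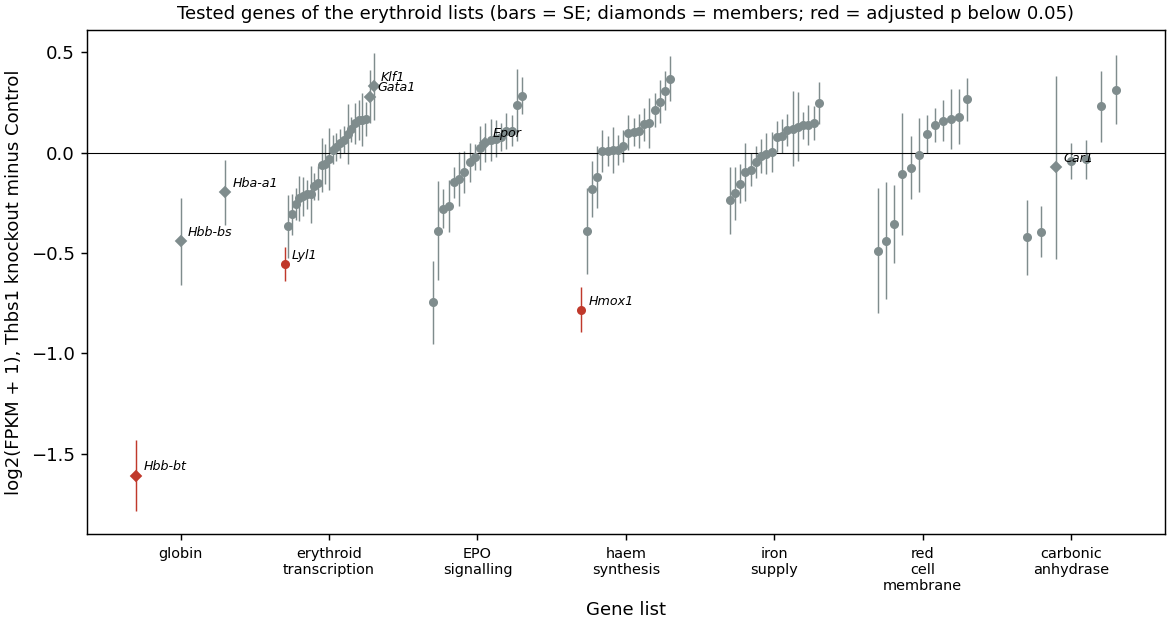
Log2 differences, Thbs1 knockout minus Control, of every tested gene in 7 erythroid lists, with bars for limma's standard error; diamonds are the 7 tested genes of the 9 described here and red marks an adjusted p below 0.05. Hbb-bt at -1.61, Hmox1 at -0.78 and Lyl1 at -0.56 are the called genes, and the other points scatter on both sides of 0.

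Besides Car1, some red-cell membrane genes were low in library 2 labelled knockout. Of the 12 tested red-cell membrane genes, 6 had their lowest value of all 6 libraries there, beside 16.0% of all tested genes. The same held for 7 of 25 transcription factors and partners, 1 of 18 erythropoietin signalling genes, 2 of 18 haem genes, 2 of 18 iron genes, 1 of 7 carbonic anhydrases and 0 of 3 globins. Over all lists without the 9 genes it was 18 of 94, so the membrane list was the extreme one. The blood-group gene Rhd stood at 3.25, 0.72 and 2.61 FPKM in libraries 1 to 3 labelled knockout and at 2.71, 4.29 and 2.71 FPKM in Control libraries. Ermap, an erythroid membrane protein, stood at 2.20, 0.42 and 2.35 FPKM in libraries labelled knockout and at 1.64, 1.95 and 1.44 FPKM in Control libraries. Both genes were lowest in the library in which Car1 was lowest. They were chosen after their values were seen. Gata1, Klf1 and Epor were not at their lowest of the 6 there, and each of the 4 globins was highest of its group in that library. The part of this library in the Car1 result is given by the values without it, above; Hbb-bt without it differed by -1.66 ± 0.20 (limma adjusted p = 0.00737).

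**Figure D4:**
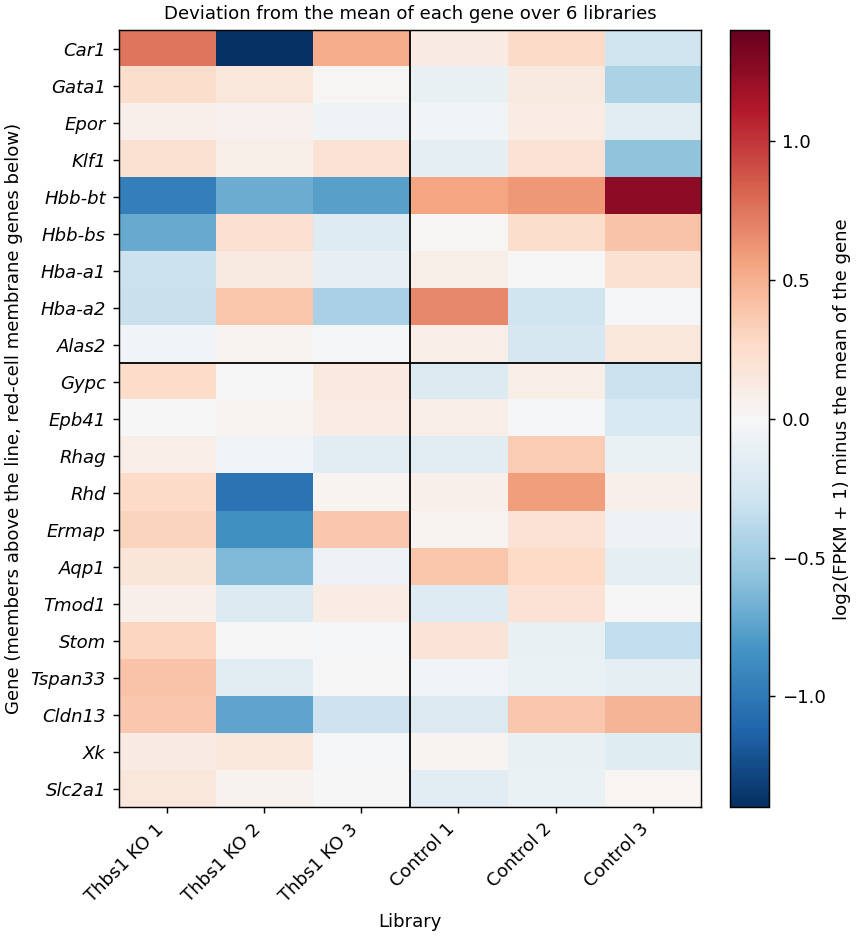
Deviation of log2(FPKM + 1) from the mean of each gene over 6 libraries, for the 9 genes (above the line) and 12 tested red-cell membrane genes (below it), with libraries labelled Thbs1 knockout (KO) left of Control. Hbb-bt is below its mean in all 3 libraries labelled knockout and above it in all 3 Control libraries, and library 2 labelled knockout is the lowest for Car1, Rhd and Ermap.

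Summed levels of markers did not overlap between the groups for some other cell types. The same held for 22.8% of all tested genes taken singly. Summed over 7 red-cell markers the level was 27.0 to 29.2 FPKM in the libraries labelled knockout and 31.1 to 36.3 FPKM in Control libraries, without overlap; Hemgn gave most of it, and 0 of the 3 tested markers were called. Summed over 8 platelet and megakaryocyte markers the level was 282 to 395 FPKM in the libraries labelled knockout and 401 to 506 FPKM in Control libraries, led by Pf4, with 0 of 8 called by limma. Summed over 8 B-cell markers it was 24.25 to 27.8 FPKM in the libraries labelled knockout and 29.3 to 31.1 FPKM in Control libraries, nearly all of it Cd79b, and the B-cell markers Ms4a1, Ebf1 and Pax5 stayed below 1 FPKM in every library. The part of these differences in the Hbb-bt result was not tested. Groups overlapped for summed neutrophil markers (61.3 to 72.8 FPKM in the libraries labelled knockout, 71.2 to 97.2 FPKM in Control libraries). They overlapped too for monocyte markers, led by Lyz2 (334 to 365 FPKM in the libraries labelled knockout, 352 to 391 FPKM in Control libraries), and for mast-cell and eosinophil markers (6.90 to 9.94 FPKM in the libraries labelled knockout, 7.57 to 9.20 FPKM in Control libraries). Summed T-cell markers did not pass 0.42 FPKM, and summed stromal markers were 3.27 to 4.04 FPKM in the libraries labelled knockout and 1.72 to 3.21 FPKM in Control libraries, without overlap.

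Likeness of profile was measured as the mean absolute difference of log2(FPKM + 1), each gene centred on its mean over the 6 libraries, among 10618 named genes. Nearest to the sum of the 4 globins were Hmox1 (0.152), Spata5l1 (0.152) and the small nucleolar RNA gene Snord73a (0.172). Spata5l1 stood at 0.843 ± 0.136 FPKM in the libraries labelled knockout and 2.63 ± 0.616 FPKM in Control libraries, and Snord73a at 10.5 ± 1.37 FPKM in the libraries labelled knockout and 23.2 ± 3.76 FPKM in Control libraries. Nearest to Gata1 were Pitpnm1, Tcp11 and Bcas3, with mean differences of 0.0475, 0.0480 and 0.0480, and their groups overlapped as those of Gata1 did. With 6 libraries and this many genes close profiles occur readily, and these are given as a description.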

How the data were processed

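RNA of sorted HSC was sequenced in 6 libraries. Per the labels' protocols, an input of 2 ng total RNA was amplified with SMART-Seq v4 Ultra Low Input chemistry, in which strand is not marked. FastQC 0.11.5, STAR, edgeR, GRCm38 and mm10 appear, with no role stated, in the submitters' processing notes. How reads were assigned to genes is not given in the sources used here. FPKM values were deposited by the authors with 2 decimals for 52183 genes. Positions and merged exon lengths came from GENCODE M21 (GRCm38), which matched all 52183 identifiers. Depth was read from genes with at most 400 exon bases, of whose values 99.4% to 99.7% were whole reads within 0.1. Read numbers cover counting error only, since PCR copies without molecular identifiers are not independent molecules. Those of the 4 globins came within 0.113 of whole numbers.

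A gene was tested if 3 or more of the 6 libraries reached 1 FPKM. The test was limma 3.58.1 (R 4.3.3) applied to log2(FPKM + 1) values (eBayes with an intensity trend, group as the single term, two-sided, Benjamini-Hochberg over all genes, threshold 0.05). Fold changes on this scale are understated for low genes. The fit was tested on simulated data first. Summed copies, shares and ratios were compared by exact permutation over libraries. Named genes are the 9 members, the called genes of each erythroid list or else its 2 smallest p, and the 3 nearest profiles; other names were chosen after their values were seen. The members and lists were chosen with earlier results of these data known. Sequences came from GENCODE M21 transcripts and RefSeq (GRCm38.p6); 8 of 9 members matched the RefSeq promoter table, and Car1 is named only. Alternatives were TPM, a filter on mean level (5 FPKM or more), no filter, a pseudocount of 0.1, median of ratios, quantile normalization, no trend, a replicate block, summed globin copies, and each library left out. All libraries and value columns were used. Some genes are not reported here.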

Additional observations from a re-analysis of the deposited data

How the results depend on the processing

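Hbb-bt kept its direction in all 14 alternative fits that tested it and passed in 13; without a filter on low values (35246 genes tested) 0 members were called lower, 0 list genes were called lower (Hbb-bt, Lyl1 and Hmox1 had adjusted p = 0.0874, 0.123 and 0.132), and all-gene calls came to 8 higher and 16 lower. Calls over all genes were 112 higher with a mean of at least 5 FPKM, 2016 higher under TPM, 24 higher and 65 lower without trend, and 27 higher and 54 lower with the replicate block, against 71 and 125. Leaving out each library gave 16 to 38 higher and 43 to 77 lower; fewer libraries also weaken the test. List genes called lower came to 1 without trend, 1 with the block and 1 to 3 with a library left out, against 2, and those called higher to 20 under TPM. Differences that changed sign were those of Epor (-0.0079 without Control library 3) and Car1 (0.12 under TPM, 0.04 without Control library 2, and between -0.47 and 0.60 with each library left out, the highest without library 2 labelled knockout), none of them called; beyond their construction the cause was not tested. Replicate numbers did not pair the libraries: deviations of same-numbered libraries correlated across genes at -0.11, 0.04 and -0.08, and not every library correlated best with its own number. Of the member and list calls, the block changed that of Lyl1. The summed beta-globin difference stayed between -9.44 and -14.4 FPKM and that of the alpha pair between -0.365 and -1.23 FPKM with a library left out; no exact test over these libraries can pass 0.05. Depth limits Hba-a2 and Alas2, at 27 reads or fewer per library. The difference in the share of Hbb-bt in beta-globin FPKM stayed between -17.5 and -24.8 percentage points with a library left out, an alternative chosen after seeing the data.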
